A study of Caenorhabditis elegans with 6 samples.

Results

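The miR-64 family of *Caenorhabditis elegans* is described here through 5 mature microRNAs (miRNAs), deposited as cel-miR-63-3p, cel-miR-64-5p, cel-miR-65-5p, cel-miR-66-5p and cel-miR-229-5p and written below without the species prefix. They were chosen by name, and all 5 were found among the 437 miRNAs listed for each library. The libraries were made from whole wild-type worms of the N2 strain grown on nematode growth medium. For 3 libraries, labelled cadmium exposure, L4 larvae met 60 µmol/L of cadmium chloride in that medium at 20 °C, with OP50 bacteria as food. The control was 3 untreated libraries, also at 20 °C. The labels give neither the length of the exposure nor whether the 3 libraries of a group came from separate cultures, so p-values measure the spread between these samples, which may be technical.

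A miRNA is cut from a hairpin precursor that yields a 5p and a 3p arm, and usually 1 arm is kept in an Argonaute protein, where it guides repression of messenger RNAs. Pairing with targets rests mainly on the seed, a short stretch near the 5′ end, and miRNAs that share a seed form a family whose members can repress overlapping targets. The 5 miRNAs here are grouped by a shared seed. The mature sequences of miR-64-5p and miR-65-5p in particular are very similar, and how the authors' counting assigned reads that match both is not given in the sources used here.

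By position, the family fell into a cluster and a separate hairpin. In the WBcel235 assembly, mir-229 (chromosome III, 2172452 to 2172566), mir-64 (2172848 to 2172957), mir-65 (2173002 to 2173101) and mir-66 (2173108 to 2173206) lie in that order on the plus strand within 755 bases. The gaps between neighbours are 281, 44 and 6 bases. All 4 hairpins lie inside intron 11 of gcn-1 (2168149 to 2174577), on the strand of that gene and outside its exons. gcn-1 is the worm counterpart of GCN1, a ribosome-associated protein known from yeast to act with the stress kinase GCN2. mir-63 is not a genomic neighbour of these 4. It lies on the minus strand of chromosome X (17598765 to 17598868), in no annotated gene, with the galectin gene lec-9 1618 bases to its right and the peptide receptor gene frpr-7 18885 bases to its left.

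**Figure D1:**
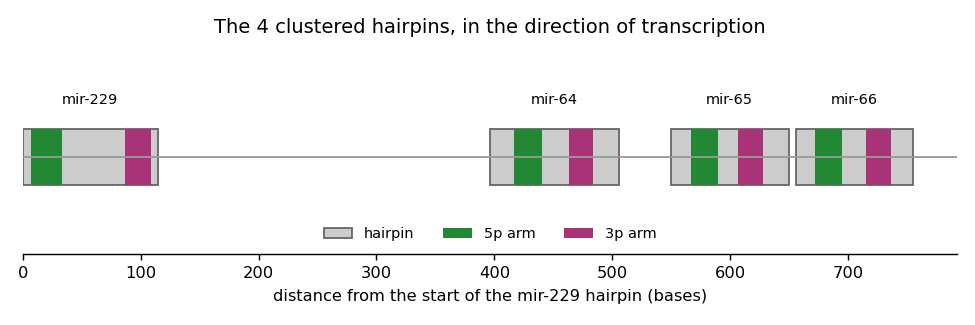
The 4 hairpins of the chromosome III cluster (grey boxes) with their 5p (green) and 3p (purple) arms, drawn to scale by distance in bases from the start of mir-229. The gaps are 281, 44 and 6 bases, and mir-65 and mir-66 nearly touch.

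The 6 libraries held between 1640693 and 3917414 miRNA counts. Levels below are CPM (counts scaled to a common library total) after trimmed mean of M-values (TMM) scaling, with no correction for length. Counting error was small for the members: the half-width of the Wilson 95% interval of a member's share of its library ran from 0.823% to 4.23% of that share. These intervals cover counting error only, as no molecular identifiers are named. No member had the same counts as any other listed miRNA.

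The family took between 2.32% and 3.47% of all miRNA counts. In the control libraries its share was 3.47%, 3.04% and 3.11% (3.21 ± 0.23, SD, n = 3). In the cadmium libraries it was 2.94%, 2.39% and 2.32% (2.55 ± 0.34, SD, n = 3), so every cadmium library lay below every control library. No background was computed for separation in share. Shares rest on total counts, and with total-count scaling the typical tested miRNA also moved down (median −0.16, log2 of cadmium over control). With that scaling 30 miRNAs were lower and 9 higher at an adjusted p under 0.05 in edgeR. The part of this general shift in the members' share was not tested. On the TMM scale, which allows for shifts in library composition, the summed level was 29937 ± 1258 CPM in control and 27127 ± 708 CPM in cadmium libraries. There too the groups did not overlap, with 28510 CPM in the lowest control and 27943 CPM in the highest cadmium library. Among single tested miRNAs, 38.5% separated in either direction on that scale. The members were chosen with earlier results known, and no test was made of this sum. Beside it, the 8 guide arms of the embryonic and germline miR-35 family held 9.34 ± 2.25% of counts in control and 2.16 ± 0.43% in cadmium libraries (n = 3 each). All 8 were lower at an adjusted p under 0.05 in edgeR, beside 12% of all tested miRNAs. In the DESeq2 Wald test 7 of the 8 passed, beside 25.1% of miRNAs with an adjusted p in either direction. Their summed level ranged from 63548 to 109928 CPM in control and from 17132 to 29405 CPM in cadmium libraries. Fewer cells of a type and less RNA per cell cannot be told apart in whole worms. The part of the miR-35 family in the members' values was not tested. Without it in the total, the members' share was 3.53 ± 0.18% in control and 2.60 ± 0.34% in cadmium libraries.

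**Figure D2:**
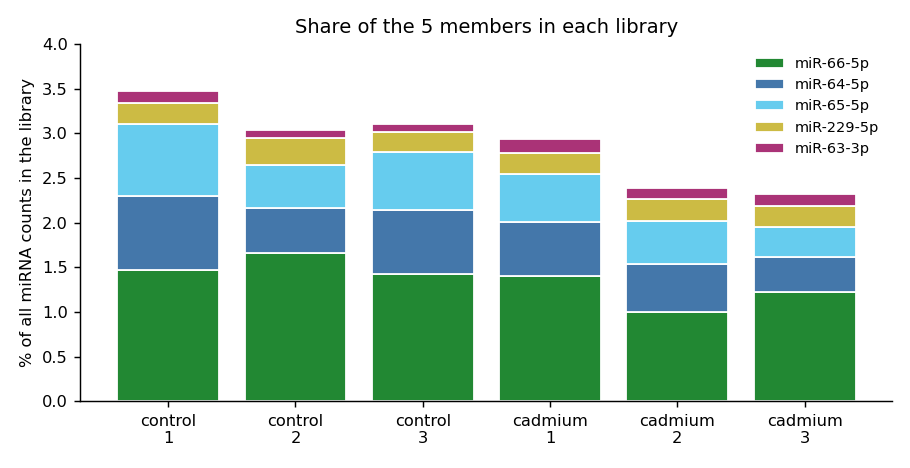
Share of all miRNA counts (%, vertical axis) taken by the 5 members in each of the 6 libraries, stacked by member. The 3 cadmium bars reach 2.32% to 2.94% and the 3 control bars 3.04% to 3.47%, and miR-66-5p is the largest block in every bar.

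Within the family, miR-66-5p was the most abundant member. It held 47.7 ± 6.4% of the family's reads in control and 47.4 ± 5.3% in cadmium libraries, and ranked 17 of 437 by mean CPM. miR-64-5p and miR-65-5p ranked 32 and 33, miR-229-5p 44 and miR-63-3p 52. In every library the order was miR-66-5p, miR-64-5p, miR-65-5p, miR-229-5p and miR-63-3p. The step from miR-64-5p to miR-65-5p was within the spread of either between libraries. Within each library it was small but in the same direction, with 1.03 to 1.15 reads of miR-64-5p per read of miR-65-5p. The levels of the other neighbours in the order did not overlap within a group. miR-63-3p held the smallest part of the family, 3.37 ± 0.35% in control and 5.56 ± 0.34% in cadmium libraries. Those 2 ranges did not overlap. No background was computed for parts of a family, but ratios of counts separated for 40.4% of all pairs of tested miRNAs.

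The comparison of cadmium with control asked which members differed beyond the spread between libraries. Of the 5 members, 1 rose under cadmium, miR-63-3p, and the 4 members of the chromosome III cluster did not pass the threshold (adjusted p under 0.05 over all 208 tested miRNAs, edgeR's quasi-likelihood test). That is 1 of 5 beside 21.6% of all tested miRNAs in either direction and 9.62% in the direction of higher under cadmium. The share among the members was therefore near the background, and the count says nothing particular to the family. Unadjusted, miR-63-3p alone had a p under 0.05, as had 35.1% of all tested miRNAs. Among the 4 cluster members 0 had one, and 0 passed in the DESeq2 Wald test, where 25.1% of miRNAs with an adjusted p passed. The groups separated without overlap for 1 of the 5 members, beside 38.5% of all tested miRNAs. The median log2 fold change was −0.15 over the 5 members and 0.0039 over all tested miRNAs.

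miR-63-3p, from the hairpin on chromosome X, stood at 1148, 910 and 968 CPM in control replicates 1 to 3. It stood at 1497, 1431 and 1592 CPM in cadmium replicates 1 to 3. All cadmium libraries were above all control libraries, a separation found in that direction for 17.8% of tested miRNAs. Its log2 fold change was 0.58 (SE 0.18, 95% interval 0.18 to 0.97), and its adjusted p 0.0418 in that test (edgeR). The adjusted p was 0.216 with total-count scaling, 0.0741 with upper-quartile scaling and 0.273 or 0.281 with limma on the logarithm of deposited CPM. It was also above the threshold without control replicate 2 (0.134), control replicate 3 (0.158), cadmium replicate 2 (0.0701) or cadmium replicate 3 (0.149), with a log2 fold change between 0.49 and 0.68 over all 6 fits that left out 1 library.

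**Figure D3:**
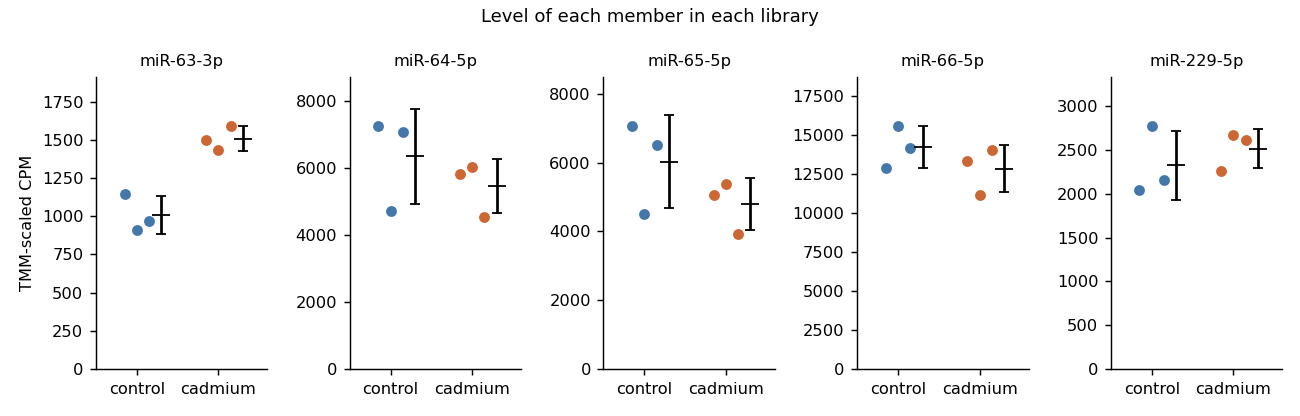
TMM-scaled CPM (vertical axis, from 0) of each member in the 3 control (blue) and 3 cadmium (orange) libraries, with the mean and SD of each group in black. The cadmium points of miR-63-3p, 1431 to 1592 CPM, lie above its control points, 910 to 1148 CPM, and the groups of the other 4 members overlap.

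The cluster members are given in their order along the chromosome. miR-229-5p, from the first hairpin, had 2045, 2777 and 2155 CPM in control and 2260, 2668 and 2618 CPM in cadmium libraries. Its groups overlapped, with control replicate 2 the highest of all 6. Its log2 fold change was 0.11 (SE 0.19, 95% interval −0.30 to 0.52, adjusted p 0.672 in edgeR's test), and it was −0.09 with total-count scaling. That scaling moved the median of all tested miRNAs to −0.16, and relative to the median miR-229-5p was at 0.11 with TMM and 0.07 with total counts. With 1 library left out it ran from 0.023 (without control replicate 1) to 0.25 (without control replicate 2).

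miR-64-5p had 7258, 4719 and 7064 CPM in control and 5817, 6020 and 4540 CPM in cadmium libraries. The low values were those of control replicate 2 and cadmium replicate 3, 1 in each group. The log2 fold change was −0.22 (SE 0.21, 95% interval −0.68 to 0.25, adjusted p 0.495 in edgeR's test), and between −0.41 (without control replicate 2) and −0.096 (without cadmium replicate 3) with 1 library left out. miR-65-5p showed the same libraries as low, with 7074, 4505 and 6521 CPM in control and 5063, 5377 and 3937 CPM in cadmium libraries. Its log2 fold change was −0.33 (SE 0.21, 95% interval −0.80 to 0.14, adjusted p 0.296 in edgeR's test). It ran from −0.52 (without control replicate 2) to −0.20 (without control replicate 1 or cadmium replicate 3), and was −0.52 with total-count scaling. The unadjusted p in edgeR was 0.0338 without control replicate 2 and 0.0484 with total-count scaling, but the adjusted p stayed above the threshold in both (0.119 and 0.148). With the counts of both summed into 1, which was decided after seeing the values, it was −0.28 (adjusted p 0.372 in edgeR's test).

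miR-66-5p had 12894, 15599 and 14174 CPM in control and 13308, 11188 and 14066 CPM in cadmium libraries. Unlike miR-64-5p and miR-65-5p, it was highest in control replicate 2 and lowest in cadmium replicate 2. Its log2 fold change was −0.15 (SE 0.17, 95% interval −0.53 to 0.24, adjusted p 0.578 in edgeR's test). It was −0.052 without cadmium replicate 2, −0.093 without control replicate 2 and −0.34 with limma on the logarithm of deposited CPM. For the 4 cluster members the intervals still allow a fall of up to 0.80 or a rise of up to 0.52 on the log2 scale.

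**Figure D4:**
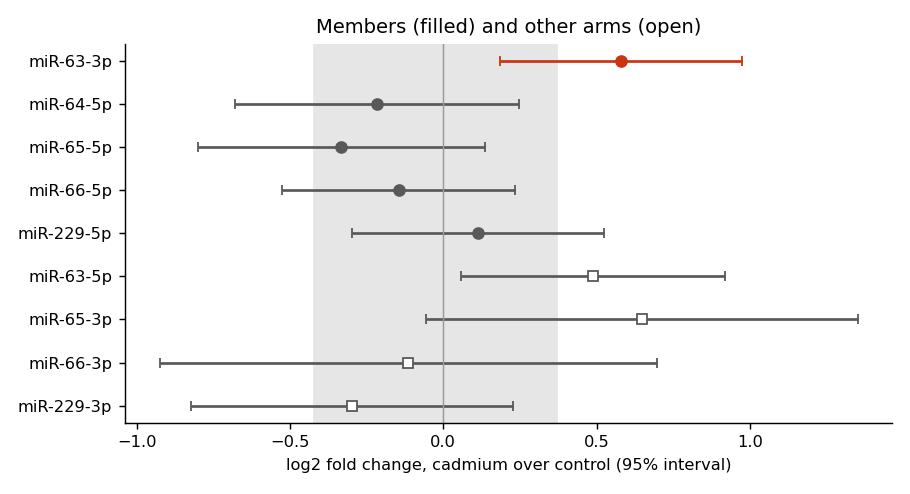
Log2 fold change of cadmium over control (horizontal axis) with its 95% interval for the 5 members (filled circles) and the 4 testable other arms (open squares). Red marks an adjusted p under 0.05, reached by miR-63-3p alone at 0.58, and the grey band spans the middle quartiles of all 208 tested miRNAs, −0.42 to 0.37.

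The members differed in how steady they were between libraries of a group. The coefficient of variation in control libraries was 22.3% for miR-64-5p and 22.4% for miR-65-5p, close to the median of 21.5% over all tested miRNAs. It was 9.51% for miR-66-5p, 12.3% for miR-63-3p and 17.0% for miR-229-5p. In cadmium libraries it ran from 5.38% for miR-63-3p to 15.8% for miR-65-5p, against a median of 19.8%. Both medians include miRNAs of only a few CPM and were not matched to the levels of the members. They do not tell how steady the members were for their level.

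Likeness of pattern was measured as the root mean square difference in log2 level over the 6 libraries, after each miRNA was centred on its own mean. The scaling of libraries cancels in this measure, apart from a small count added before the logarithm, which matters for miRNAs with few reads. miR-65-5p was the closest of 207 miRNAs to miR-64-5p, and miR-64-5p the closest to miR-65-5p, at a difference of 0.064 where the median over miRNAs was 0.44 and 0.46. Each remained the closest to the other in all 6 cases where 1 library was dropped, a check added after seeing the values. Since the assignment of reads that match both names is not given, the likeness is uncertain as a measure of separate miRNAs. miR-66-5p, whose hairpin lies 6 bases from mir-65, ranked only 59 of 207 in likeness to miR-65-5p (difference 0.37) and 58 to miR-64-5p (0.35). miR-66-5p and miR-229-5p were nearer to each other (0.21), with miR-66-5p ranking 12 for miR-229-5p and miR-229-5p ranking 24 for miR-66-5p. The single hairpin's miR-63-3p had no cluster member nearer than miR-229-5p, which ranked 59 of 207 (0.33). These values describe 6 libraries that share 2 treatments, and were not tested.

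**Figure D5:**
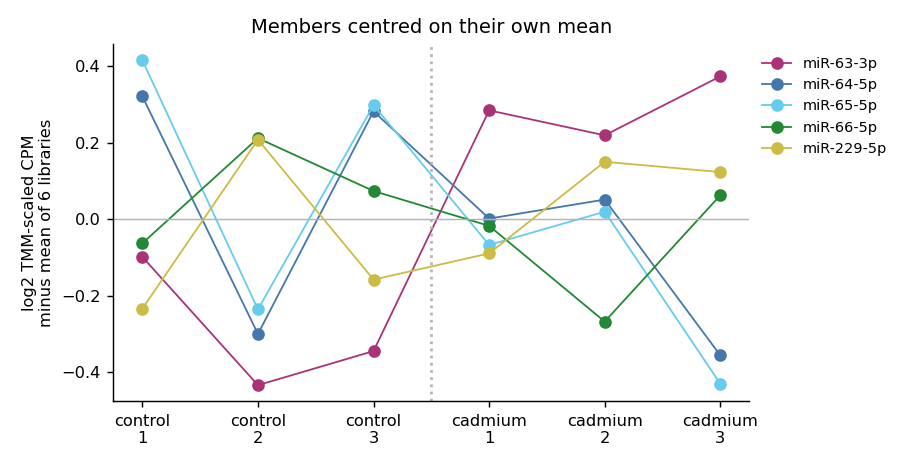
Log2 TMM-scaled CPM of each member minus its mean over the 6 libraries (vertical axis), by library, with lines only joining the points of a member. miR-64-5p and miR-65-5p run together, high in control replicates 1 and 3 and low in control replicate 2 and cadmium replicate 3, while miR-66-5p and miR-229-5p are high in control replicate 2 and miR-63-3p is above 0 in the cadmium libraries only.

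Ratios between members within a library asked whether some moved more than others. For 4 of the 10 pairs the control and cadmium libraries did not overlap, beside 40.4% of all pairs of tested miRNAs. Of these 4, 3 had miR-63-3p as a partner. Its log2 ratio to miR-64-5p went from −2.63 ± 0.25 to −1.85 ± 0.30, its ratio to miR-65-5p from −2.56 ± 0.23 to −1.66 ± 0.31 and its ratio to miR-66-5p from −3.82 ± 0.31 to −3.09 ± 0.10 (SD, n = 3 each). The exact permutation p (two-sided) was 0.1 for each, the smallest that 3 against 3 libraries can give, and 0.25 after Benjamini-Hochberg adjustment over the 10 pairs. The ratio to miR-229-5p overlapped between groups (change 0.46, exact permutation p 0.2). Without control replicate 1 this change was 0.65 and the groups separated (exact permutation p 0.1, the smallest that 2 against 3 libraries can give), and without control replicate 2 it was 0.26.

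The remaining separated pair was miR-64-5p and miR-65-5p themselves. Reads of miR-64-5p per read of miR-65-5p numbered 1.03, 1.05 and 1.08 in control and 1.15, 1.12 and 1.15 in cadmium libraries. miR-64-5p thus made up 50.6%, 51.2% and 52.0% of the reads of both in control, and 53.5%, 52.8% and 53.6% in cadmium libraries. The highest Wilson 95% bound in control was 52.4% and the lowest bound in cadmium 52.3%, so the intervals of control replicate 3 and cadmium replicate 2 just overlapped. Such an overlap is no test of the difference between these 2 libraries. The difference of the log2 ratio was 0.12 and stayed between 0.098 and 0.14 with any 1 library left out. Its exact permutation p was 0.1, the smallest possible, and 0.25 adjusted over the 10 pairs. Among the other 5 pairs, all within the cluster, the log2 ratios differed by between −0.44 and −0.05, and the groups overlapped. Some separated with 1 library left out, each at an exact permutation p of 0.1, the smallest possible there, and 0.167 or 0.25 after adjustment. The share of all pairs of tested miRNAs that separate with 1 library left out was not computed. Without control replicate 2 the ratios of miR-64-5p and miR-65-5p to miR-229-5p differed by −0.66 and −0.77, and without cadmium replicate 1 that of miR-66-5p to miR-229-5p differed by −0.37.

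The other arm of each hairpin, usually the one discarded, was listed for all 5 hairpins. The balance between arms differed widely. miR-64-5p, miR-65-5p and miR-66-5p made up at least 99.5% of the reads of their hairpins in every library. miR-229-5p made up 86.7% to 93.4% of its hairpin. miR-63 was the least one-sided, with miR-63-3p making up 71.3% to 79.9% and miR-63-5p the rest. It is also the only hairpin of the 5 in which the 3p arm is the member.

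miR-63-5p was, like miR-63-3p, higher in every cadmium library than in any control library, as were 17.8% of all tested miRNAs. The libraries within a group did not keep the same order for the 2 arms. Control replicate 1 was the highest control library for miR-63-3p and the lowest for miR-63-5p. miR-63-5p stood at 289, 367 and 362 CPM in control and 456, 482 and 491 CPM in cadmium libraries. The log2 fold change was 0.49 (SE 0.20, 95% interval 0.06 to 0.92), but the adjusted p was 0.0966 in edgeR's test. The log2 ratio of 5p to 3p was −1.57 ± 0.36 in control and −1.66 ± 0.08 in cadmium libraries, a difference of −0.09 (adjusted p 0.973 in limma over 63 hairpins, 95% interval −0.80 to 0.63). The highest and the lowest ratio were both in control libraries, −1.31 in replicate 2 and −1.99 in replicate 1.

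Among the other arms of the cluster, none of the 3 that could be tested passed in edgeR, beside 21.6% of all tested miRNAs. Of these 3, 0 had an unadjusted p under 0.05, beside 35.1%, and 0 passed in the DESeq2 Wald test, beside 25.1%. miR-229-3p stood at 314, 197 and 252 CPM in control and 176, 238 and 205 CPM after cadmium, a log2 fold change of −0.30 (SE 0.24, edgeR adjusted p 0.419), which was −0.12 without control replicate 1, −0.16 without cadmium replicate 1 and −0.47 without control replicate 2. miR-65-3p was read 16, 37 and 32 times in control and 48, 54 and 43 times in cadmium libraries, and its edgeR adjusted p was 0.174 (log2 fold change 0.65, SE 0.32). miR-66-3p was read 5 to 22 times in control and 9 to 17 times after cadmium, a log2 fold change of −0.11 (SE 0.37, edgeR adjusted p 0.852). miR-64-3p was too low to test, read 3, 3 and 7 times in control and 8, 9 and 3 times after cadmium, where 3 counts were taken as the floor of detection.

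The 5p to 3p ratio was tested for 4 of the 5 hairpins, and none passed the threshold in limma, beside 3.17% of the 63 hairpins tested. miR-65 had the largest difference. Its log2 ratio was 9.65, 8.28 and 9.63 in control and 8.52, 8.38 and 7.66 in cadmium libraries. The ratio in control replicate 2 lay with the cadmium libraries, and the groups overlapped. The difference was −0.996 (SE 0.44), with an adjusted p of 0.324 in limma. Its unadjusted p of 0.0458 was 1 under 0.05 among the 4, where 14.3% of the 63 hairpins had one, and groups without overlap were seen for 0 of the 4 and 19% of the 63. Without control replicate 2 it was −1.45, with an adjusted p of 0.0377 in limma. The other 5 fits that left out 1 library gave −1.16 to −0.73, with adjusted p from 0.267 to 0.926 in limma, and the smallest difference came without cadmium replicate 3. For miR-229 the difference was 0.41 (SE 0.36, adjusted p 0.711 in limma), from 0.16 without control replicate 1 to 0.71 without control replicate 2, and for miR-66 −0.13 (SE 0.33, adjusted p 0.945 in limma).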

How the data were processed

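Per the labels' protocols, RNA isolated in TRI reagent was made into small RNA libraries and sequenced on an Illumina NextSeq 500. The authors deposited whole-number read counts per mature miRNA for each library. They also deposited CPM values, which equal counts divided by the total of the listed miRNAs. The submitters' processing notes name FastQC 0.11.9, cutadapt 3.4, HISAT2 2.2.1, StringTie 2.1.5, Bowtie2 2.4.2, DESeq2, edgeR and WBcel235 without their roles. The counting step and miRNA annotation are not given in the sources used here, and 12 columns matching no sample title were not used.

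Groups came from sample titles. In R 4.3.3, filterByExpr and TMM of edgeR 4.0.16 left 208 miRNAs, and the quasi-likelihood F test (two-sided, no covariates) was adjusted by Benjamini-Hochberg over these. Arm ratios, log2((5p + 0.5)/(3p + 0.5)), were compared with limma 3.58.1 where both arms had a mean of at least 10 counts. Ratios between members used exact permutation. The edgeR and limma procedures were run on simulated data, and the exact permutation test was not. Alternatives were other scalings, no filter, DESeq2 1.42.0, limma on deposited CPM, a replicate block and leaving out libraries. Positions come from Ensembl release 115.

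Members and lists were chosen with earlier results of these data known. Named were the 5 members, their other arms, miRNA hairpins within 10 kb and the miRNA most like each member in pattern. A planned search for other miRNAs with the same seed was not run.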

Additional observations from a re-analysis of the deposited data

How the results depend on the processing

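Over all tested miRNAs, 45 changed, and leaving out 1 library gave between 22 (without control replicate 3) and 52 (without cadmium replicate 1). Titles give both groups the same replicate numbers, but the deviations of libraries sharing a number correlated at −0.045, −0.29 and −0.31. With the replicate number as a block, 17 miRNAs changed (7 higher, 10 lower), and miR-63-3p had an adjusted p of 0.101 (log2 fold change 0.58).

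Of the 5 members, 1 changed as reported. The number was 0 with total-count scaling, upper-quartile scaling, limma on log2(deposited CPM + 1), limma on log2(deposited CPM + 0.1) and the replicate block. With 1 library left out it was between 0 and 1. In those fits with edgeR that called 0, 1 or 2 members had an unadjusted p under 0.05, and in both limma fits 0 had. miR-63-3p passed in 5 of its 14 alternatives, namely the DESeq2 Wald test, DESeq2 size factors in edgeR, the unfiltered table, and without replicate 1 of either group. Its log2 fold change ran from 0.38 to 0.68. Of 72 values of the members under alternatives, 60 kept their direction and side of the threshold, 9 lost the call and 3 reversed. The 3 were those of miR-229-5p, at −0.085 with total-count scaling and −0.072 and −0.072 with limma at the pseudocounts of 1 and 0.1.

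Other reversals came from leaving out a library. miR-66-3p ran from −0.32 to 0.14 (without control replicate 3). The 5p to 3p ratio of miR-66 ran from −0.33 to 0.082 (without control replicate 1), and that of miR-63 from −0.29 to 0.045 (without control replicate 2). The log2 ratio of miR-64-5p to miR-66-5p ran from −0.32 to 0.14, above 0 without control replicate 1, control replicate 3 or cadmium replicate 3. That of miR-65-5p to miR-66-5p ran from −0.44 to 0.034, above 0 without control replicate 1 or cadmium replicate 3. Changed arm ratios numbered 2 of 63 hairpins as reported, 0 with the replicate block in limma (7 with an unadjusted p under 0.05), and 0 to 6 with 1 library left out. With at least 50 counts per arm there were 3 of 32. With 1 library left out, the members' share of counts differed by −0.85 to −0.52 percentage points between groups, against −0.66 as reported. For these differences the cause was not tested. Depth limits miR-64-3p, miR-65-3p and miR-66-3p, which have 54 counts or fewer in every library.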

Other observations

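The miRNAs most like each member in pattern over the 6 libraries, members and their other arms left aside, came from several families. For miR-63-3p it was miR-72-5p, at a root mean square difference of 0.12, with a log2 fold change of 0.46 (adjusted p 0.0558 in edgeR's test). For miR-66-5p it was miR-233-3p (0.082) and for miR-229-5p it was let-7-3p (0.12), and each of these was closer than any other member. For miR-64-5p it was miR-1829a-3p (0.16) and for miR-65-5p it was miR-42-5p (0.12), each second to the other member of that pair. The median difference over the 207 miRNAs compared ran from 0.40 to 0.48. None of these 5 miRNAs passed the threshold between the groups. Mean levels in control and cadmium libraries were low for miR-42-5p (9.2 and 6.3 CPM), let-7-3p (9.9 and 12.2 CPM) and miR-1829a-3p (30.9 and 24.6 CPM). They were higher for miR-233-3p (354 and 300 CPM) and miR-72-5p (26908 and 36994 CPM). The part of counting error, and of the small count added before the logarithm, in these likenesses was not tested.

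No other miRNA hairpin is annotated within 10 kb of the chromosome III cluster. The only one within that distance of mir-63 is mir-2217b-1, 9358 bases away on the opposite strand. miR-2217b-1-5p and miR-2217b-5p had 0 counts in every library, and miR-2217b-3p was read 1, 2 and 5 times in control and 2, 10 and 2 times after cadmium.

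The developmental timing miRNAs listed for context (let-7-5p, miR-48-5p, miR-84-5p, miR-241-5p and lin-4-5p) had a median log2 fold change of 0.56, with 0 of 5 past the threshold in edgeR's test, beside 21.6% of all tested miRNAs. Of the 5, 3 had an unadjusted p under 0.05, beside 35.1%, and 1 passed in the DESeq2 Wald test, beside 25.1%. Their summed level ranged from 20681 to 28262 CPM in control and from 29121 to 44645 CPM in cadmium libraries. The muscle miRNA miR-1-3p ranged from 155520 to 229630 CPM in control and from 214512 to 256441 CPM in cadmium libraries. The part of these in the members' values was not tested.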
